A study of Mus musculus with 2 samples.

Results

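The genes described here encode enzymes that make serine, charge folate with carbon units and build nucleotides. Members were the rows of the NPC and the neuron table whose symbol equals 1 of 38 listed genes, and 37 of the 38 were found among the 20373 listed genes. Ctps2 was not analysed here. The members fall into 5 steps: serine (3 genes), folate (6), purine (12), pyrimidine (6 found) and deoxynucleotide (10). RNA had been sequenced from 2 cell populations of embryonic mouse cortex (embryonic day 15.5), with 1 library each. The embryos came from a cross of heterozygous Nestin-GFP with homozygous DCX-mRFP mice and carried both reporters, so both groups share them. The group called NPC (neural progenitor cells) was sorted as green cells and the group called neuron as cells with both colours. Each gate rests on a reporter promoter and not on a protein of the cell. The strain background, the sex and the number of embryos behind each library are not stated in the labels.

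Serine is made from an intermediate of glycolysis by 3 enzymes in a row. Serine hydroxymethyltransferases then move a carbon from serine to folate, in the cytosol or in mitochondria, and the charged folates supply carbons to the purine ring and to thymidylate. Purines are built stepwise on ribose phosphate, whereas the pyrimidine ring is closed first and attached to ribose phosphate later. Ribonucleotide reductase converts ribonucleotides to deoxynucleotides, and a dividing cell needs these to copy its genome. In the embryonic cortex, progenitors divide along the ventricle while young neurons have left the cell cycle.

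Levels are given in CPM, counts per 1000000 on a scale common to both libraries. The libraries held 26346226 (NPC) and 23312054 (neuron) reads on listed genes. Nes and Dcx, the genes behind the reporters, were at 409 and 2522 CPM in the NPC library and at 189.5 and 3294 CPM in the neuron library, so Dcx transcript was abundant in both. All 10 radial glia markers exceeded 2-fold toward NPCs and 9 of 10 neuron markers were higher in neurons. Markers of other cells also differed. Of 8 pericyte markers 7 reached 1 CPM and summed to 204 CPM in NPCs and 11.5 in neurons, with Des, which did not reach it, at 21 and 0 reads. Endothelial markers (8 of 9 reached 1 CPM) summed to 21.8 and 3.34 CPM, and 6 oligodendrocyte lineage markers to 75.9 and 28.8. In the other direction, 9 microglia markers summed to 34.0 and 149.6 CPM and 6 Cajal-Retzius markers to 100.1 and 460.0. Sums of 7 interneuron markers (303 and 217 CPM) and of 3 erythroid markers out of 6 (90.5 and 83.7) lay closer together. The part of these cells in the results that follow was not tested.

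Transcripts of serine synthesis and of part of deoxynucleotide synthesis were lower in the neuron library. Those of purine and pyrimidine synthesis differed by less, most purine genes being higher in NPCs. Of the 37 members, all at 1 CPM or more in at least 1 library, 28 were higher in NPCs and 9 in neurons. Among all 12693 genes at that level, 50.7% were higher in NPCs. With 1 CPM added to both values, 5 members were at least 2-fold higher in NPCs, 13.5% of the members against 6.73% of all genes. These were Phgdh, Psat1, Tyms, Rrm2 and Tk1. In the other direction 0 members reached 2-fold, against 3.85% of all genes. At 1.5-fold, 10 members were higher in NPCs (27.0% against 13.1% of all genes) and 1 in neurons (2.70% against 10.6%), and 26 members lay between. The median log2 ratio (neuron over NPC) over the members was −0.32, and over all genes it was −0.0049. Their summed level was 2399 CPM in NPCs and 1897 in neurons. In sorted bulk RNA, fewer cells that express a gene and less of its RNA per cell cannot be told apart. With 1 library per group there is no replicate spread and no p-value. The 95% intervals given with folds cover counting error only, and reads were not tagged by molecule. They excluded equal levels for 34 of 37 members, and for 68.1% of all genes.

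**Figure D1:**
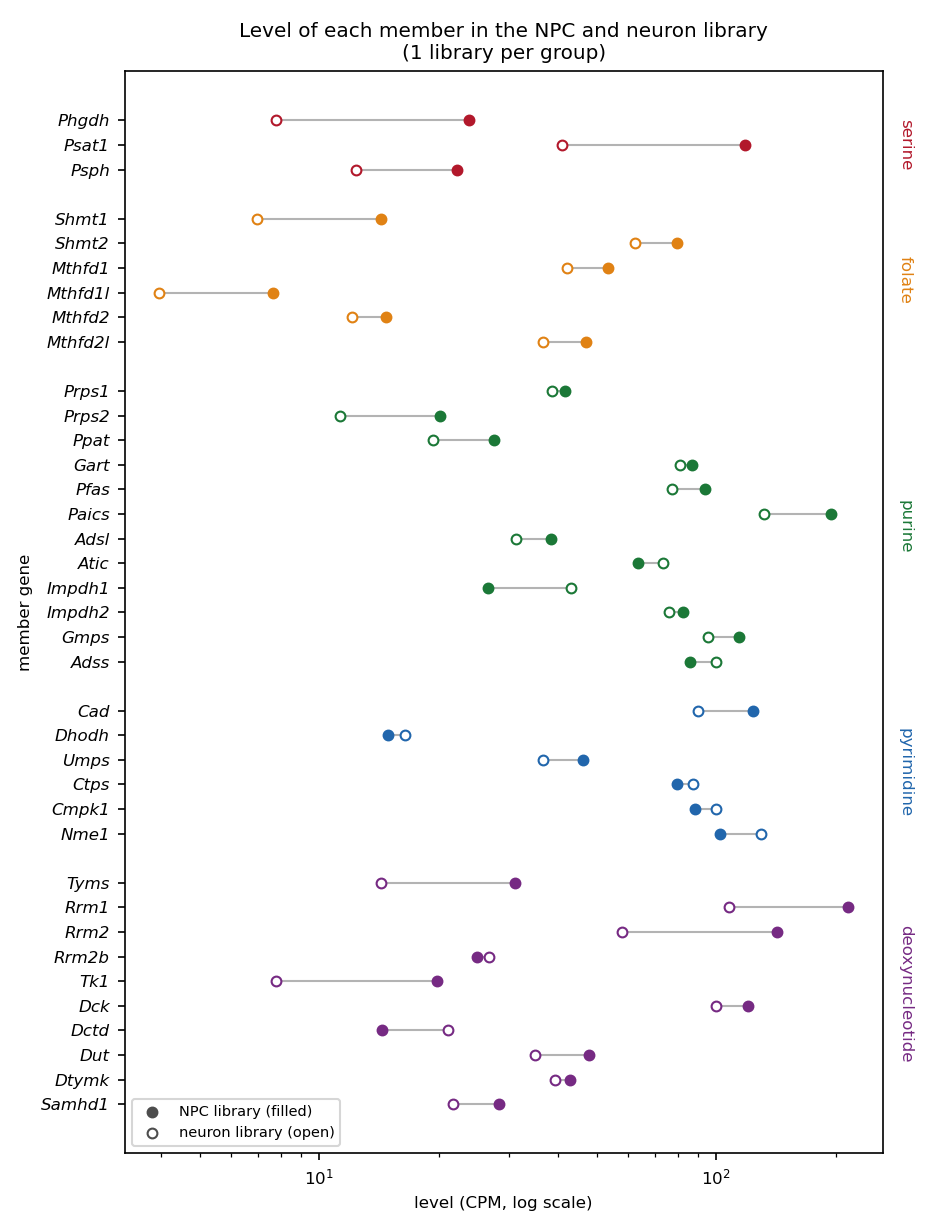
Level of each of the 37 members in CPM on a log axis, with filled points for the NPC library and open points for the neuron library, 1 library each, coloured by step. Open points lie left of the filled ones for all 3 serine and all 6 folate genes, whereas 4 of 6 pyrimidine genes have the open point on the right.

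The serine step showed the lowest median of the 5 steps in the neuron library, a log2 ratio of −1.51. Phgdh, the dehydrogenase that opens the pathway, was at 23.9 CPM (NPC, 646 reads) and 7.77 CPM (neuron, 177 reads). It was 3.08-fold toward NPCs (95% counting interval 2.61 to 3.66). Psat1, the aminotransferase of the next reaction, was at 118 (NPC) and 40.8 CPM (neuron), 2.90-fold toward NPCs (2.69 to 3.12). The last enzyme gene, Psph, whose product removes the phosphate, was at 22.2 and 12.4 CPM, 1.79-fold toward NPCs (1.55 to 2.07). All 3 were thus higher in the NPC library, and the interval of Psph lay below those of Phgdh and Psat1. The 3 genes together were at 164 (NPC) and 61.0 CPM (neuron), a 2.69-fold difference. In the same libraries the radial glia markers had a median log2 ratio of −1.57 and the pericyte markers of −3.45.

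The 250 bases before the RefSeq start (GRCm38.p6) of these 3 genes are shown because the genes differ in the same direction. Capitals mark matches, on either strand, to 4 sets of letters: CCAAT, the E-box CACGTG of Myc proteins, the E2F letters TTCCCGC or TTGGCGC or TTCGCGC or TTGCCGC, and the ATF4 letters TGATGNAA. No matches overlap in the promoters printed here. Of 2 Psat1 starts in the table the first listed is shown.
Phgdh, chr3:98339970-98340219 (- strand): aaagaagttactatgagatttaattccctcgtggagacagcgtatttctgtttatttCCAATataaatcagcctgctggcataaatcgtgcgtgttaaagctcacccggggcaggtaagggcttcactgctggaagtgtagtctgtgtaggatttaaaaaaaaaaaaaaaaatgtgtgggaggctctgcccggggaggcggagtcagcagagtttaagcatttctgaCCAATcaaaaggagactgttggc
Psat1, chr19:15925060-15925309 (- strand): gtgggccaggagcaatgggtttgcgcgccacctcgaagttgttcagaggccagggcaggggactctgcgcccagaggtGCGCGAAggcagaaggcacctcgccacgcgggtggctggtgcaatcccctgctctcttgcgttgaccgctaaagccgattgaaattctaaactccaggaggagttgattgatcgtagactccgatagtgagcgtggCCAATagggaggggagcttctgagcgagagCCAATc
Psph, chr5:129787254-129787503 (- strand): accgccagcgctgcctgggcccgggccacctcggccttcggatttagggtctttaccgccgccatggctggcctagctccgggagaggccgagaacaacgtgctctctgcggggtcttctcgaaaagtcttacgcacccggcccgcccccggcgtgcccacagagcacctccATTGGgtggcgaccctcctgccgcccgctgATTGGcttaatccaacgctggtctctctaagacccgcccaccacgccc

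All 3 sequences hold CCAAT or its reverse complement at 2 places, and the second Psat1 start in the table, not shown, has 0 matches to any of the 4 sets. The matches end 189 and 19 bases before the start in Phgdh, 32 and 2 bases before it in Psat1, and 74 and 44 bases before it in Psph. CCAAT letters occur in 33.8% of all 32851 promoters of the table and in 35.5% of those of genes at 1 CPM or more. ATF4 letters were found in 0 of the 4 promoters of the serine genes, against 3.5% of all promoters and 1.9% of those of genes at 1 CPM or more. With shares this low, 0 of 4 is the usual outcome for any genes and says little about these. These matches describe the reference sequence and are not measured binding sites.

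All 6 folate genes were higher in the NPC library, with a median log2 ratio of −0.35 and 0 of 6 past 2-fold with 1 CPM added. Shmt1, the cytosolic serine hydroxymethyltransferase, was at 14.3 (NPC) and 6.98 CPM (neuron). It was 2.05-fold higher in NPCs without the added value (1.70 to 2.48). Its mitochondrial counterpart Shmt2 was at 79.5 and 62.3 CPM, 1.28-fold toward NPCs (1.19 to 1.36). The intervals of these folds lay apart. Mthfd1, a cytosolic enzyme with 3 activities on folate-bound carbon, was at 53.4 and 42.2 CPM (1.27-fold, 1.17 to 1.38). The mitochondrial Mthfd1l, which releases formate, was at 7.64 and 3.95 CPM, from 206 and 90 reads (1.93-fold, 1.502 to 2.505). Mthfd2 and Mthfd2l, the mitochondrial dehydrogenases, were at 14.7 and 12.1 CPM and at 47.0 and 36.6 CPM, with folds of 1.22 (1.04 to 1.43) and 1.28 (1.18 to 1.40). The larger folds thus belonged to Shmt1 and Mthfd1l, 1 gene of each compartment.

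The deoxynucleotide step split into genes with a large difference and genes with little. Ribonucleotide reductase has a large subunit, Rrm1, and a small subunit encoded by Rrm2 or by Rrm2b. Rrm1 was at 215 CPM (NPC, 5800 reads) and 108 CPM (neuron, 2466 reads), 1.99-fold toward NPCs (1.89 to 2.08). Rrm2, the small subunit of dividing cells, was at 142 and 57.9 CPM (2.46-fold, 2.31 to 2.62). Rrm2b, the small subunit that p53 induces and that cells outside S phase use, was at 25.0 (NPC) and 26.8 CPM (neuron). Its fold of 1.07 toward neurons had an interval of 0.960 to 1.199, and no difference was detectable beyond counting error. Of the 2 small subunits, then, only the interval of Rrm2 excluded equal levels. Tyms, which makes thymidylate with a carbon from folate, was at 31.1 and 14.3 CPM (2.18-fold toward NPCs, 1.92 to 2.49). Tk1, the cytosolic thymidine kinase of S phase, was at 19.8 and 7.77 CPM (2.55-fold, 2.15 to 3.04). The neuron library still held 39.2% to 50.3% of the NPC level of Rrm1, Rrm2, Tyms and Tk1, genes grouped here after their values were seen.

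Transcripts of the other enzymes of this step differed less. Dut, which destroys dUTP and keeps uracil out of DNA, was at 47.9 (NPC) and 34.98 CPM (neuron) (1.37-fold, 1.25 to 1.499). Dtymk, the kinase after Tyms and Tk1, was at 42.9 and 39.2 CPM, a 1.09-fold difference (1.001 to 1.19). Transcripts for thymidylate formation (Tyms, Tk1) and for its next phosphorylation (Dtymk) thus differed by unequal amounts. The salvage kinase gene Dck was at 120.2 and 99.8 CPM (1.21-fold toward NPCs, 1.14 to 1.27). Samhd1, which degrades deoxynucleotides, was at 28.4 and 21.7 CPM, 1.31-fold toward NPCs (1.17 to 1.47). Dctd, a deaminase that feeds dUMP to thymidylate synthase, went the other way at 14.4 and 21.1 CPM, 1.46-fold toward neurons (1.28 to 1.68). Over the 10 genes the median log2 ratio was −0.41, with a range from −1.28 for Rrm2 to 0.52 for Dctd. DNA replication genes had a median of −0.87 (7 of 20 at least 2-fold higher in NPCs, against 6.73% of all genes) and mitosis genes of −1.47 (19 of 20).

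**Figure D2:**
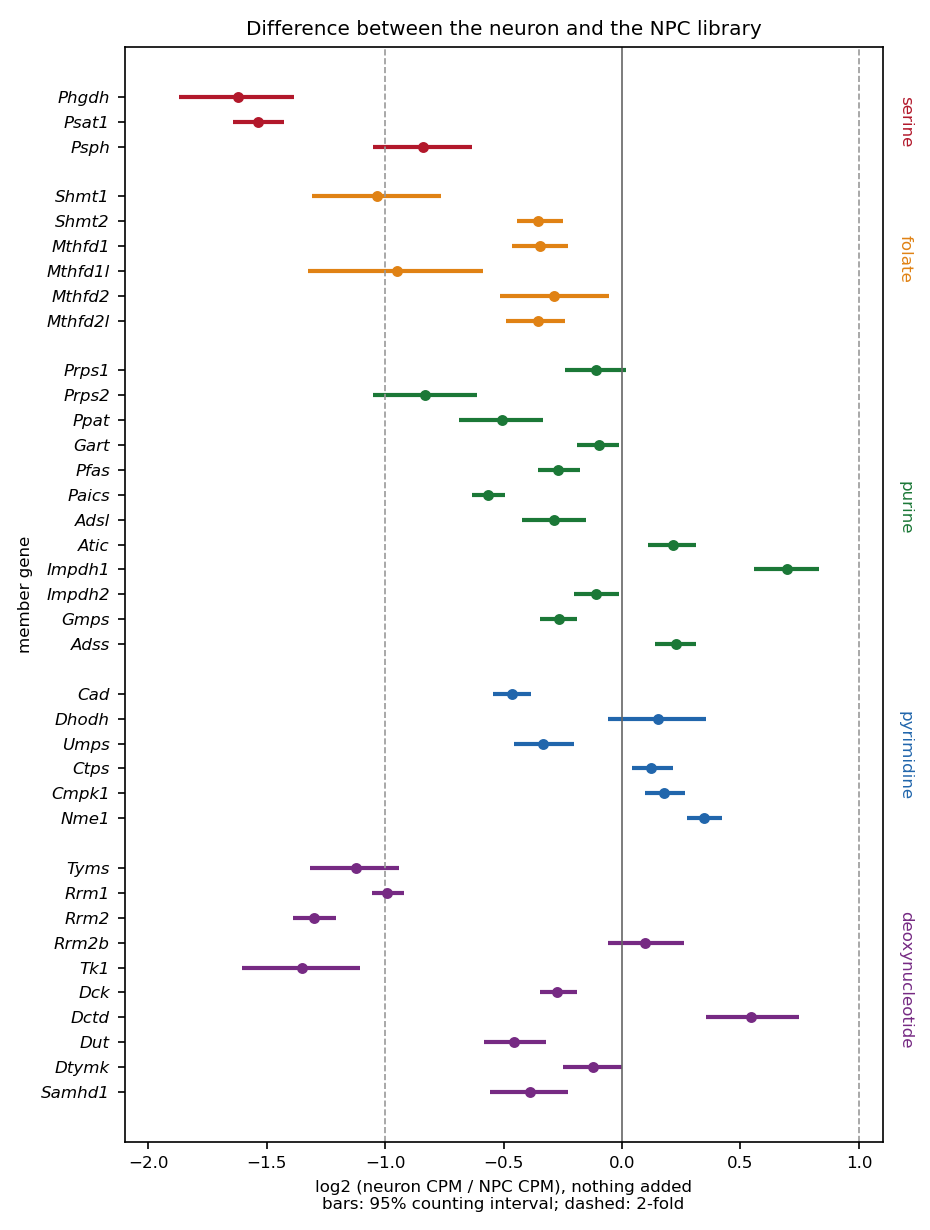
Log2 of the neuron CPM over the NPC CPM for each member with nothing added, where bars are 95% counting intervals and dashed lines mark 2-fold. Phgdh, Psat1, Shmt1, Tyms, Rrm2 and Tk1 lie left of the −1 line with Rrm1 beside it, and Impdh1 and Dctd lie farthest to the right.

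Promoters of 4 of these genes are shown in the same way, since their transcripts had the largest differences of the step.
Rrm1, chr7:102441445-102441694 (+ strand): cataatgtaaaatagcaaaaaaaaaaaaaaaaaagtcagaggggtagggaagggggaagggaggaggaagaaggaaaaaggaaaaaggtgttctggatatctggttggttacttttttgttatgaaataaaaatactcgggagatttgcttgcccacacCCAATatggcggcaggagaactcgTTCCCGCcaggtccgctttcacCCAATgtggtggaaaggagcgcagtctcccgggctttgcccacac
Rrm2, chr12:24708004-24708253 (+ strand): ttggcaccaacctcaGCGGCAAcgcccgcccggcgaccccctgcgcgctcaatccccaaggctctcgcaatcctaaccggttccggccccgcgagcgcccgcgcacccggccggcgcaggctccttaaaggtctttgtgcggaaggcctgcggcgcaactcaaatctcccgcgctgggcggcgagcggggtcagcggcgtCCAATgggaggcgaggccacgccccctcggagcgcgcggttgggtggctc
Tyms, chr5:30073626-30073875 (- strand): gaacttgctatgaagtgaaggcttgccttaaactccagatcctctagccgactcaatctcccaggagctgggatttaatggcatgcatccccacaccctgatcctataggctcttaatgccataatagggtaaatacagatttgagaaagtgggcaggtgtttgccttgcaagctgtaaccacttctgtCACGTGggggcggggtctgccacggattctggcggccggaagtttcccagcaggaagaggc
Tk1, chr11:117826015-117826264 (- strand): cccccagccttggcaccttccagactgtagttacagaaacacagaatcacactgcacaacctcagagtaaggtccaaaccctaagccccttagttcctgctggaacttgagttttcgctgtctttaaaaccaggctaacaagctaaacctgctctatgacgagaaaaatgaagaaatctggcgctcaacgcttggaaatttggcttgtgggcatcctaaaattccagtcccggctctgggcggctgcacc

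Rrm1 holds E2F letters ending 61 bases before the start, between CCAAT matches at 87 and 41 bases. Rrm2 has CCAAT at 46 bases and E2F letters far upstream at 229 bases. Tyms has an E-box at 56 bases, and Tk1 has none of the 4 motifs in this window. Rrm1 and Rrm2 thus both hold E2F and CCAAT letters in this window, but no motif of these sets is common to all 4 genes. Over all members in the table, E2F letters were in 10 of 40 promoters (25.0%), against 7.9% of all promoters and 13.8% of those of genes at 1 CPM or more. Within the deoxynucleotide step the count was 3 of 11 (27.3%), made up of Rrm1, Rrm2 and Dtymk, and the Dtymk transcript differed little. The share was larger in the purine step, at 4 of 12 (33.3%). E-box letters were in 7 of 40 (17.5%), against 6.0% of all promoters and 8.3% of those of genes at 1 CPM or more, and CCAAT letters in 15 of 40 (37.5%). The 34 members in the table do not include Dhodh, Pfas and Rrm2b.

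Purine genes had a median log2 ratio of −0.19, a smaller difference than in the serine, folate and deoxynucleotide steps. Past 2-fold were 0 of 12, against 6.73% of all genes toward NPCs and 3.85% toward neurons, so that count does not set them apart. Of the 12, 9 were higher in NPCs (against 50.7% of all genes), and 11 intervals excluded equal levels (against 68.1% of all genes). Prps1 and Prps2 make the activated ribose phosphate on which the ring is built. Prps1 was at 41.6 (NPC) and 38.5 CPM (neuron), and its interval of 0.988 to 1.18 included equal levels. Prps2 was at 20.1 and 11.3 CPM, 1.78-fold toward NPCs (1.53 to 2.07), the largest fold of the step. Ppat, the committing enzyme, was at 27.6 and 19.4 CPM (1.42-fold, 1.26 to 1.61). Gart, which carries out several early reactions, was at 87.0 and 81.2 CPM (1.07-fold, 1.01 to 1.14). Pfas followed with 93.5 and 77.6 CPM (1.205-fold, 1.13 to 1.28). Of these 5 early members, 4 were thus higher in NPCs with intervals that excluded equal levels, by folds from 1.07 to 1.78. Intervals that exclude equal levels, in either direction, were as common as 68.1% among all genes. Paics, a bifunctional enzyme of the middle of the pathway, was at 195 (NPC) and 132 CPM (neuron) (1.48-fold, 1.41 to 1.55). Adsl, which acts in the main path and again on the way to AMP, was at 38.3 and 31.4 CPM (1.22-fold, 1.11 to 1.34). Atic, which closes the ring to IMP with a folate-borne carbon, was more abundant in the neuron library, at 63.6 and 73.6 CPM (1.16-fold, 1.08 to 1.24).

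From IMP the path forks. Impdh1 and Impdh2 encode the dehydrogenase that leads to GMP. Impdh1 was at 26.7 (NPC) and 43.1 CPM (neuron), 1.62-fold toward neurons (1.47 to 1.78). It was the 1 member past 1.5-fold in that direction, and 91.1% of all genes had a lower log2 ratio. Impdh2 was at 82.3 and 76.2 CPM, 1.08-fold toward NPCs (1.01 to 1.15). Impdh1 was thus higher in neurons while Impdh2 differed little, with 37.5% of all genes at a lower log2 ratio than Impdh2. Their signs were opposite under each scaling between the libraries that was tried. Gmps, which completes GMP, was at 114 and 95.2 CPM (1.203-fold toward NPCs, 1.14 to 1.27). Adss, on the branch to AMP, was at 85.8 and 100.2 CPM (1.17-fold toward neurons, 1.102 to 1.24). Microglia markers summed to 34.0 CPM in NPCs and 149.6 in neurons beside these genes, and their part was not tested.

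Pyrimidine genes had a median log2 ratio of 0.13, and 2 of 6 were higher in NPCs, against 50.7% of all genes. Cad, whose product joins the first 3 enzymes of the ring in a single protein, was at 124 (NPC) and 89.8 CPM (neuron) (1.38-fold toward NPCs, 1.305 to 1.46). Umps, which makes UMP, was at 46.1 and 36.7 CPM (1.26-fold, 1.15 to 1.37). Dhodh, the mitochondrial enzyme between them, was at 14.9 and 16.5 CPM with an interval of 0.960 to 1.28 toward neurons. Transcripts of the cytosolic enzymes of UMP synthesis were thus higher in NPCs, with no detectable difference for Dhodh. Ctps, which makes CTP from UTP, was at 79.8 and 87.4 CPM (1.09-fold toward neurons, 1.03 to 1.16). The kinase gene Cmpk1, which phosphorylates UMP and CMP, was at 88.3 and 100.2 CPM (1.13-fold, 1.07 to 1.202). Nme1, a nucleoside diphosphate kinase that also serves purines, was at 102 and 130.0 CPM (1.27-fold, 1.21 to 1.34). Nme1 lies beside its close relative Nme2 (102 and 109.8 CPM), and reads of the pair may have been split, so both values are uncertain. All 6 lay within 1.5-fold, as did 9688 of all 12693 genes.

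Shares within pairs of related genes do not depend on the scaling between libraries. They are shares of reads, not corrected for exon length, and serve to compare the libraries. Rrm2 took 85.1% of the reads of Rrm2 and Rrm2b in NPCs (exact 95% binomial interval 84.0 to 86.1) and 68.4% in neurons (66.2 to 70.4). Impdh1 took 24.5% of the Impdh reads in NPCs (22.9 to 26.1) and 36.2% in neurons (34.4 to 38.0). The share of Prps1 against Prps2 was 67.4% in NPCs (65.1 to 69.7) and 77.3% in neurons (74.7 to 79.7). In these 3 pairs the intervals of the libraries lay apart by several percentage points. The Shmt1 share against Shmt2 was 15.3% (13.9 to 16.7) and 10.1% (8.6 to 11.7). Mthfd1 took 87.5% (85.8 to 89.1) and 91.4% (89.6 to 93.1) against Mthfd1l. The share of Mthfd2 against Mthfd2l was 23.9% (21.8 to 26.0) in NPCs and 24.8% (22.3 to 27.5) in neurons, with overlapping intervals. The gene with more reads per kilobase of exon was the same in both libraries for all 6 pairs.

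**Figure D3:**
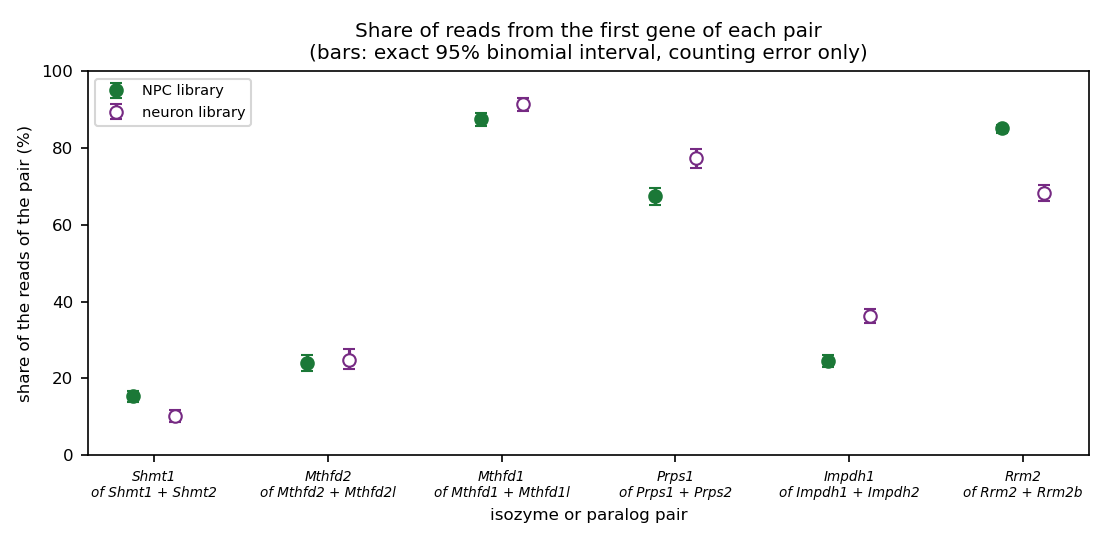
Share in percent of the reads of each pair that came from the first gene named, in the NPC library (filled) and the neuron library (open), with exact 95% binomial intervals. The Rrm2 share is 85.1% in NPCs and 68.4% in neurons, the Impdh1 share lies higher in neurons, and the Mthfd2 shares overlap.

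Apart from these read shares, levels were compared between genes only per kilobase of exon. Exon lengths were those of protein-coding transcripts in GENCODE vM21, which may differ from the annotation behind the files. On this scale Paics was the most abundant member in both libraries, at 78.4 CPM per kilobase in NPCs and 53.0 in neurons. Rrm2 and Rrm1 held ranks 2 and 3 in NPCs (64.9 and 53.8 CPM per kilobase). In neurons they held ranks 10 and 8 of 37 (26.4 and 27.1). Psat1 went from rank 5 (40.2) to rank 17 (13.9). Impdh2 held ranks 4 and 2 at 44.3 and 41.0 CPM per kilobase. The members highest in neurons were thus Paics and Impdh2 of the purine step, and the reductase genes and Psat1 stood lower in that order. Mthfd1l was lowest in both libraries, at 1.79 and 0.925 CPM per kilobase.

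Other genes of the same pathways, from lists drawn up beside the members, mostly lay within 1.5-fold, as did 9688 of all 12693 genes. In the folate and methyl cycle list 19 of 23 genes reached 1 CPM. With 1 CPM added, 3 of the 19 were at least 2-fold higher in NPCs (15.8% against 6.73% of all genes) and 0 in neurons. Aldh1l1, a cytosolic enzyme that burns folate-bound carbon and marks astrocytes, was at 12.3 (NPC) and 2.90 CPM (neuron) (4.25-fold, 3.25 to 5.62). Gldc, which cleaves glycine in mitochondria, was at 55.8 and 17.3 CPM (3.23-fold, 2.89 to 3.61). Gldc and Aldh1l1 thus differed more than any of the 6 folate members, whose folds reached 2.05. Aldh1l2, the mitochondrial relative of Aldh1l1, was more abundant in the neuron library, at 58.3 and 90.4 CPM (1.55-fold, 1.45 to 1.66).

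For serine transport and use, 10 of 12 genes reached 1 CPM and the median log2 ratio was 0.04. Of the 10, 1 was at least 2-fold higher in NPCs, against 6.73% of all genes. That gene was Cbs, which joins serine to homocysteine, at 13.9 and 5.004 CPM (2.78-fold, 2.25 to 3.46). Cth, the next enzyme toward cysteine, was at 3.04 and 1.098 CPM (2.77-fold with nothing added, 1.75 to 4.53). With 1 CPM added its log2 ratio was −0.95, short of 2-fold. The amino acid carrier gene Slc1a5 was 1.71-fold toward NPCs (1.46 to 2.01), and Sptlc2, which uses serine for sphingolipids, was 1.38-fold toward neurons (1.28 to 1.499). Transcripts of the serine synthesis genes and of Cbs and Cth were thus lower in the neuron library, while the list as a whole was not. Cbs and Cth had the largest differences of their list, and Cth had 25 reads in the neuron library.

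Salvage and turnover lists had medians near 0. Purine salvage had a median log2 ratio of −0.02 over 16 of 19 genes. With 1 CPM added, 1 gene was past 2-fold toward NPCs (6.25% against 6.73% of all genes) and 0 toward neurons (against 3.85%). The largest differences of this list were Ak4 (13.6 and 5.71 CPM) and Pnp (13.98 and 6.76 CPM) toward NPCs, and Ak1 (25.5 and 46.1 CPM) and Gmpr (3.89 and 7.29 CPM) toward neurons. Ak4 and Ak1 are adenylate kinases of mitochondria and cytosol, Pnp splits purine nucleosides and Gmpr returns GMP to IMP. Pyrimidine salvage had a median of −0.01 over 11 of 15 genes and 0 past 2-fold. Nme4, a mitochondrial nucleoside diphosphate kinase, was 1.78-fold higher in NPCs, and Cmpk2, Nme3 and Uck2 differed toward neurons by 1.61-fold, 1.27-fold and 1.22-fold. The list for salvage and cleaning of deoxynucleotides had a median of 0.05 over 9 genes and 0 past 2-fold. Nudt1, which removes oxidized deoxynucleotides, was 1.95-fold toward NPCs (1.54 to 2.48). Tk2, the mitochondrial thymidine kinase, was at 36.7 and 47.5 CPM, 1.29-fold toward neurons (1.19 to 1.41), opposite in direction to Tk1, and Nt5c was 1.19-fold higher there.

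Regulators known for these pathways differed in both directions. E2f1, E2f2 and E2f3, transcription factors of S phase genes, differed toward NPCs by 1.85-fold (1.67 to 2.04), 3.13-fold (2.56 to 3.85) and 1.72-fold (1.59 to 1.87). Myc, a growth regulator with many targets in nucleotide synthesis, was at 12.2 (NPC) and 18.9 CPM (neuron) (1.56-fold toward neurons, 1.34 to 1.80). Mycn and Atf4, singled out after their values were seen, were at 105 and 146 CPM and at 135 and 118 CPM. Atf4, a regulator of serine synthesis genes, was thus 1.15-fold toward NPCs (1.09 to 1.205). Among replication genes, Cdc6, Mcm3, Cdt1 and Mcm6 differed toward NPCs by 3.85-fold, 3.35-fold, 2.98-fold and 2.51-fold, beside the 2.46-fold of Rrm2. The mitosis list was led by Mki67 at 829 and 241 CPM, and Hmmr, Bub1 and Cenpe had folds from 3.08 to 3.42. Whether a member follows the share of dividing cells in each library was not tested.

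**Figure D4:**
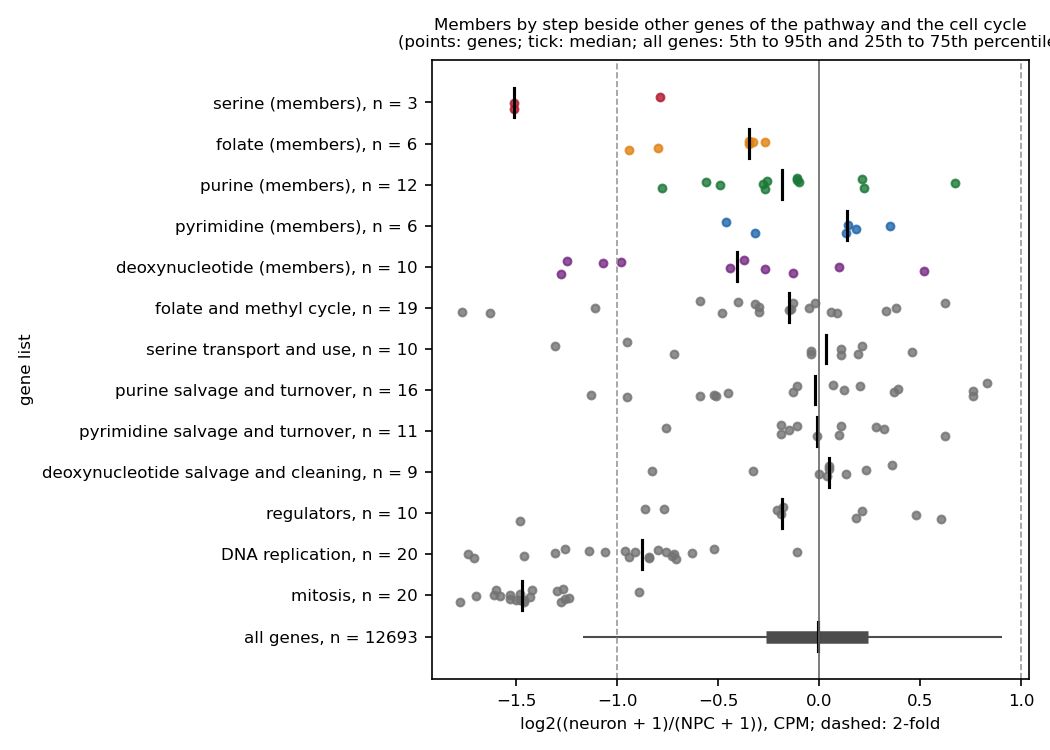
Log2((neuron + 1)/(NPC + 1)) in CPM for members by step and for other lists, with 1 point per gene and a tick at each median, and for all 12693 genes the 5th to 95th and 25th to 75th percentiles. Serine members and the 4 lowest deoxynucleotide members lie within the range of the DNA replication genes (−1.74 to −0.11). That range also holds all 6 folate members (−0.94 to −0.27) and members of the purine, pyrimidine and deoxynucleotide steps. Purine members lie mostly left of 0, and pyrimidine members and the salvage lists have medians nearer to 0.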

How the data were processed

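RNA of 1 NPC and 1 neuron library was sequenced with an Illumina TruSeq kit, per the labels' protocols. Tools listed by the submitters' processing notes, without roles, are edgeR, SAMtools 0.1.18, TopHat 1.2.0 and CASAVA 1.9, on build mm9. Neither the annotation, the use of strand nor the treatment of multiply aligned reads is given in the sources used here, so genes with processed pseudogenes or close relatives are uncertain.

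The deposited values are a signal per gene that the authors rescaled: they are near whole multiples of 0.952727 (NPC) and 1.12797 (neuron). Division by these steps gave whole reads within 0.05 for 100% of values in each library, with values under 0.01 taken as 0. Both libraries were divided by the mean of their sums (25698104) and multiplied by 1000000 to give CPM, which keeps the authors' scaling. A level of 1 CPM then equals 26.97 (NPC) or 22.78 (neuron) reads, and 3 reads are 0.111 and 0.132 CPM. Genes with at least 1 CPM in a library were counted by log2((neuron + 1)/(NPC + 1)). Folds of single genes have nothing added and carry exact 95% Clopper-Pearson intervals on the share of reads. With 1 library per group no replicate spread could be estimated, and no test beyond these intervals was run on the reads. The members, lists and rules were chosen with earlier results of these data known. Genes named beside the members are the 4 with the largest absolute log2 ratio of each list, and others are stated as chosen after their values were seen. A few results that this rule selects are not reported here. Map2 was found under its older symbol. Read recovery and intervals were checked on simulated data of this comparison, over 20373 genes with 200 changed. There 95.3% of intervals held the true fold. The simulated reads had counting error only, so this checks the calculation and does not cover variation between libraries. Alternatives were the added value, the filter and the scaling by total reads, edgeR 4.0.16 (TMM) or DESeq2 1.42.0 size factors, in R 4.3.3. The other calculations used Python 3.11.15 with scipy 1.17.1 and pandas 2.3.3. Promoters are from RefSeq (GRCm38.p6).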

Additional observations from a re-analysis of the deposited data

How the results depend on the processing

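With 5 CPM added in place of 1, 3 members were at least 2-fold higher in NPCs instead of 5 (Phgdh, Psat1 and Rrm2), against 3.14% of all genes, and the serine median was −1.18 instead of −1.51, since a larger added value shrinks the ratios of low genes. The neuron count stayed at 0, and the other 4 step medians moved by less than the counting interval. All 12 counts and 30 step medians with 0.5 CPM added, without a filter, with a 10 CPM filter or with scaling by total reads, TMM or DESeq2 size factors, moved by less than 1.5 times or by less than the counting interval, the largest move of a count being from 5 to 7 members higher in NPCs with total reads (7.39% of all genes). The sign of 0 of 37 members turned under the 3 other scalings, and 28 were higher in NPCs under each. Paics alone moved past its counting interval, to a log2 ratio of −0.63 with total reads. No paired analysis was possible because each group has 1 library. All differences are those of 2 libraries, and Mthfd1l, Phgdh, Tk1 and Shmt1, with 90 to 177 reads in the neuron library, have the widest intervals.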
